A study of Mus musculus with 6 samples.

Results

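The MYC and MAX network comprises the transcription factors that pair with MAX on DNA. It was followed here through 10 genes, Myc, Mycn, Mycl, Max, Mxd1, Mxd3, Mxd4, Mxi1, Mnt and Mga, chosen by name among the 53618 named rows of 1 table of mouse bulk RNA-seq. The cells were GFP+Lin-c-Kit+ splenocytes, that is, leukemia cells that carry the GFP marker, lack lineage markers and display the receptor c-Kit. All of them descended from Usp18+/f UBCER-Cre fetal liver cells transduced with AE9a, the leukemogenic short form of the AML1-ETO fusion in acute myeloid leukemia, and grew in transplanted, irradiated mice. Both groups therefore carried the oncogene, the floxed Usp18 allele and the tamoxifen-activated Cre, which is driven by a ubiquitin promoter and is thus not limited to 1 cell type. Sick recipients were injected with oil (3 mice) or with tamoxifen (3 mice), which is meant to delete 1 Usp18 allele, and the cells were sorted 3 days after the first injection. No group received tamoxifen without the floxed allele, so an effect of the drug or of Cre and an effect of the deletion cannot be told apart in these libraries. Per the study's methods, the mice were 8 to 12 weeks old and of both sexes.

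MYC is a transcription factor that promotes cell growth, ribosome production and division, and it binds DNA only as a dimer with MAX. The preferred site of the dimer is the E-box, CACGTG. The MXD proteins (encoded by Mxd1, Mxd3, Mxd4 and Mxi1), MNT and MGA compete for MAX. MXD proteins and MNT recruit the SIN3 and histone deacetylase corepressor to the same sites, whereas MGA joins MAX to a Polycomb complex called PRC1.6. In acute myeloid leukemia, MYC supports proliferation and blocks differentiation, and MXD1 is known to be induced as myeloid cells mature.

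The E-box itself stood in the promoters of 3 members, shown because it is the sequence the network reads. The promoters span 250 bases before to 50 bases after each start site (RefSeq, GRCm38.p6), and 9 of the 10 members matched an entry, with 11 promoters in all. Myc had no match, so its promoter was not searched. Each line below gives 30 bases from 5′ to 3′ on the strand of the gene, with the E-box in capitals.
Max: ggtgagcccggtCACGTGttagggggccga
Mnt: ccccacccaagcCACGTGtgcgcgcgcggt
Mxd4: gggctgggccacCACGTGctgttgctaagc
The Max stretch lies at chr12:76962234-76962263 on the minus strand and its E-box begins at -3 from the start site. The Mnt stretch lies at chr11:74830789-74830818 on the plus strand, with the E-box at -123. The Mxd4 stretch lies at chr5:34187912-34187941 on the minus strand, with the E-box at -219. The motif searched was CACGTG, which reads the same on both strands. It was found in 7.15% of all 32851 promoters of this length and in 10.1% of the 11479 promoters of genes tested here. The letters are a description of these windows and do not show that any factor was bound.

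Libraries held between 19164795 and 23770537 reads of named genes. The library labelled tamoxifen 1 stood apart. It correlated with the remaining 5 at a median of 0.913, against 0.981 to 0.990 for the rest, and mitochondrial genes took 0.00923% of its reads, against 1.01% to 1.56%. Results for the members are therefore given with and without it. The gene meant to be deleted was higher, not lower, in the libraries labelled tamoxifen. Usp18 (ENSMUSG00000030107.10, chr6:121245906-121270917, plus strand) had 217, 214 and 176 normalized counts in the oil-labelled libraries and 477, 329 and 284 in the tamoxifen-labelled ones, and the log2 fold change was 0.81 (limma, adjusted p = 0.666, and 0.52 with an adjusted p of 0.0348 with the library weights described below). Usp18 is also induced by interferon, and a read count over the whole gene does not tell an intact allele from a deleted one. Directions are therefore worded by label. Normalized counts are reads divided by 1 size factor per library, and coordinates are those of GENCODE vM21 (GRCm38). Replicates were separate mice.

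None of the 8 members that could be tested passed the threshold. Expression of the network was dominated by Myc and Max, with moderate levels of Mxi1, Mnt, Mxd4, Mga, Mxd3 and Mxd1, whereas Mycn and Mycl were next to absent. The test was limma on log2(normalized count + 1) over the 12298 named genes that reached a value of 10 in 3 or more libraries. After Benjamini-Hochberg adjustment over all of them, 0 genes were under 0.05 (0%), members included. At an unadjusted p under 0.05, limma gave 0 of the 8 members and 550 of all genes (4.47%), of which 3.23% were higher and 1.24% lower in tamoxifen-labelled libraries. DESeq2 on the recovered reads gave 71 of 24246 genes (0.293%) after adjustment, a share whose base includes 8932 genes without an adjusted p. edgeR on the same reads gave 0 genes after adjustment and 596 at an unadjusted p under 0.05, and neither tool called a member.

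**Figure D1:**
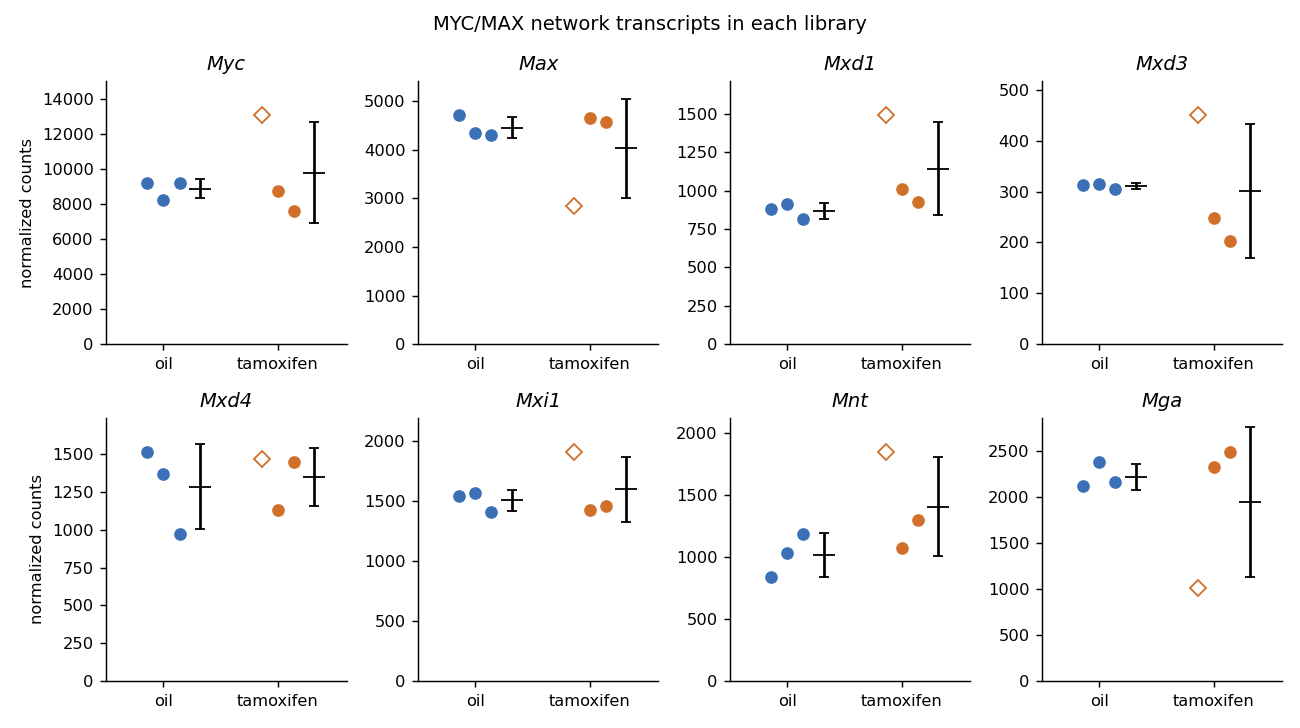
Normalized counts (y axis, from 0) of the 8 tested members in each library labelled oil (blue) or tamoxifen (orange), with the library labelled tamoxifen 1 as an open diamond and the bar giving the mean ± SD of 3 libraries. Myc lay between 8220.8 and 9195.3 in oil, the open diamond sat at 13046.4, and in Max and Mga the diamond was the lowest point instead.

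Myc (ENSMUSG00000022346.15, chr15:61985391-61990374, plus strand) is the MYC family gene of these cells. It had 9195.3, 8220.8 and 9186.9 normalized counts in the oil-labelled libraries and 13046.4, 8739.1 and 7577.9 in the tamoxifen-labelled ones. The library labelled tamoxifen 1 lay above the oil libraries, tamoxifen 2 within their range and tamoxifen 3 below them, so the groups overlapped. The means were 8867.7 ± 560 and 9787.8 ± 2881.1 (SD, n = 3 each), a ratio of 1.1. The log2 fold change of Myc was 0.11 with a standard error of 0.22 (limma, adjusted p = 0.815), and its 95% interval, written as a fold, ran from 0.744 to 1.56. Leaving out the library labelled tamoxifen 1 gave a log2 fold change of -0.12, with an interval from -0.33 to 0.08 (limma, adjusted p = 0.633). The direction of Myc thus turned with 1 library. A p that misses the threshold does not show that the level of Myc was the same, and the interval leaves room for a ratio from 0.744 to 1.56.

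Mycn and Mycl are the other MYC family genes, known mainly from other tissues. Mycn (ENSMUSG00000037169.15, chr12:12936093-12941914, minus strand) had 0, 1 and 1 reads in the oil-labelled libraries and 0 in all 3 labelled tamoxifen. For Mycl (ENSMUSG00000028654.13, chr4:122995652-123002485, plus strand), 0 reads were found in every library but the one labelled tamoxifen 3, which held 2. Both fell below the filter and were not tested. Against a floor of 3 reads per library, Myc per exon length was at least 3368.6-fold higher than Mycn and at least 4128.2-fold higher than Mycl in every library. Such a floor covers counting error only, because PCR copies of 1 molecule were not told apart.

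Max (ENSMUSG00000059436.13, chr12:76937269-76962201, minus strand) encodes the partner that MYC needs to bind DNA and for which the antagonists compete. Its normalized counts were 4703.2, 4343.4 and 4305.6 in the oil-labelled libraries and 2847.5, 4652.4 and 4574.2 in the tamoxifen-labelled ones. The first library labelled tamoxifen was the lowest of the 6, and the other 2 lay within the range of oil. The means of Max were 4450.7 ± 219 and 4024.7 ± 1020.2 (SD, n = 3 each). The difference was -0.18 on the log2 scale, with an interval from -0.70 to 0.34 (limma, adjusted p = 0.697), and 0.053 without the library labelled tamoxifen 1, with an interval from -0.12 to 0.22. Of the 8 intervals from these 5 libraries, that of Max was the narrowest.

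Among the MXD genes, Mxd1 was the only member whose groups did not overlap. Mxd1 (ENSMUSG00000001156.9, chr6:86647042-86669161, minus strand) had 881, 917 and 814 normalized counts in the oil-labelled libraries and 1491.5, 1012.3 and 928 in the tamoxifen-labelled ones. All 3 of the latter lay above all 3 of the former, although the lowest value labelled tamoxifen exceeded the highest labelled oil only narrowly. The means were 871 ± 51.9 and 1144.1 ± 304 (SD, n = 3 each), a ratio of 1.31, or 1.11 from the libraries labelled tamoxifen 2 and 3. Mxd1 thus had a log2 fold change of 0.36 (standard error 0.21; limma, adjusted p = 0.666) and 0.16 without the library labelled tamoxifen 1 (adjusted p = 0.539). Of all genes tested, 7.86% lay wholly above oil and 9.69% wholly below, so that 1 of 8 members above and 0 of 8 below is near the background.

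Mxd3 was the most even member in oil and the only one past the threshold under any alternative. Mxd3 (ENSMUSG00000021485.14, chr13:55325168-55329823, minus strand), an MXD gene expressed in cycling cells, had 313, 316 and 305 normalized counts in the oil-labelled libraries and 450, 249 and 202 in the tamoxifen-labelled ones. The library labelled tamoxifen 1 was thus the highest of all, and the other 2 were the lowest. With all libraries the log2 fold change of Mxd3 was -0.14 with an interval from -0.88 to 0.61 (limma, adjusted p = 0.826). Without the library labelled tamoxifen 1 it was -0.47 with a standard error of 0.14 and an interval from -0.78 to -0.17 (limma, unadjusted p = 0.00644, adjusted p = 0.21). In that fit 1488 genes (12.1%) had an unadjusted p under 0.05, 6.04% higher and 6.06% lower, and 41 genes (0.333%) passed after adjustment, no member among them. When limma was given library weights, in which the library labelled tamoxifen 1 counted for 0.0377 and the others for 0.956 to 3.37, Mxd3 reached -0.55 on the log2 scale (adjusted p = 0.0218), while 782 genes (6.36%) were called in the same fit and 23.4% had an unadjusted p under 0.05. Over all 18 alternatives the adjusted p of Mxd3 ran from 0.0218 to 0.965. Mxd3 shares 105 exonic bases with Prelid1 on the opposite strand, and the strand setting of the counting is not given in the sources used here, so reads of the shared stretch could belong to either gene. Prelid1, a mitochondrial lipid transfer gene, ordered the libraries labelled tamoxifen in the same way, with 8546.4, 5736.5 and 4841.6 normalized counts against 5998.4, 6026.0 and 6001.1 in oil. The part of Prelid1 reads in the values of Mxd3 was not tested.

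Mxd4 and Mxi1 had no difference larger than the spread between libraries. Mxd4 (ENSMUSG00000037235.13, chr5:34173883-34187720, minus strand), an MXD gene of quiescent and differentiating cells, had 1514.4, 1369.0 and 970 normalized counts in the oil-labelled libraries and 1467.2, 1129.5 and 1449.6 in the tamoxifen-labelled ones. It was the most variable member within oil, where its coefficient of variation was 21.9%, against 1.95% for Mxd3. The log2 fold change of Mxd4 was 0.085 with an interval from -0.44 to 0.61 (limma, adjusted p = 0.847), and 0.020 with an interval from -0.38 to 0.42 (adjusted p = 0.978) without the library labelled tamoxifen 1. Mxi1 (ENSMUSG00000025025.14, chr19:53310518-53375810, plus strand), which encodes the MXD family member MXI1, had 1545.9, 1565.8 and 1407.7 normalized counts in oil and 1910.7, 1423.5 and 1462.3 in tamoxifen-labelled libraries. Its log2 fold change was 0.074 (limma, adjusted p = 0.826), and -0.061 without the library labelled tamoxifen 1. Mxd4 and Mxi1 share 514 and 194 exonic bases with the opposite-strand genes Gm42846 and Gm10197, to which 0 reads were assigned in every library.

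Mnt and Mxd1 were the members that kept their direction under all 18 alternatives. Mnt (ENSMUSG00000000282.12, chr11:74830920-74845725, plus strand), the broadly expressed antagonist of MYC, had 834, 1026.5 and 1183.0 normalized counts in the oil-labelled libraries and 1843.0, 1070.9 and 1298.6 in the tamoxifen-labelled ones. The groups overlapped, since the library labelled tamoxifen 2 lay below the one labelled oil 3. The means were 1014.6 ± 175 and 1404.2 ± 397 (SD, n = 3 each), a ratio of 1.38, which was 1.17 from the libraries labelled tamoxifen 2 and 3. On the log2 scale Mnt differed by 0.45, with a standard error of 0.25 and an interval from -0.15 to 1.04 (limma, adjusted p = 0.666). It was 0.23 without the library labelled tamoxifen 1 (adjusted p = 0.558), and with the GC correction described below it was 0.13, less than a value of 0.36 for Mxd1 in the same fit. Over 18 alternatives the adjusted p of Mnt ran from 0.154 to 0.861.

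Mga was the member with the greatest distance between the library labelled tamoxifen 1 and the rest. Mga (ENSMUSG00000033943.15, chr2:119897228-119969581, plus strand) encodes the MAX partner that scaffolds PRC1.6. It had 2119.8, 2380.1 and 2160.7 normalized counts in the oil-labelled libraries and 1005.8, 2331.8 and 2489.9 in the tamoxifen-labelled ones. The first library labelled tamoxifen held 0.431 times the median of the other 5, which were close to each other. The log2 fold change of Mga was -0.30 with an interval from -1.14 to 0.54 (limma, adjusted p = 0.69), and 0.12 with an interval from -0.07 to 0.31 without that library.

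**Figure D2:**
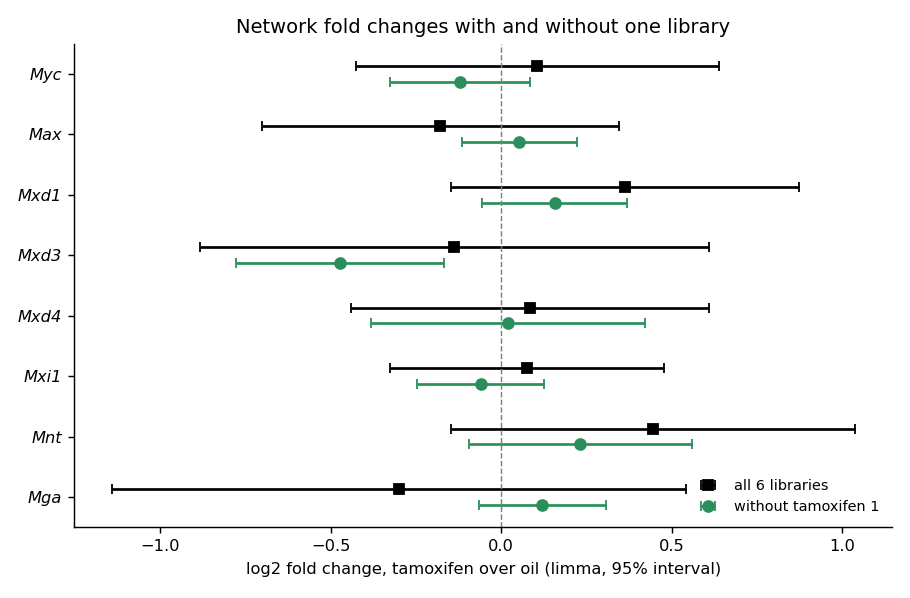
log2 fold change, libraries labelled tamoxifen over oil (x axis), of each tested member with its 95% interval from limma, for all 6 libraries (black squares) and without the library labelled tamoxifen 1 (green circles). The direction differs between the 2 fits for Myc, Max, Mxi1 and Mga, and the interval of Mxd3 lies wholly below 0 only in the fit of 5 libraries.

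The library labelled tamoxifen 1 was the highest or the lowest of the 6 in 7 of the 8 members (87.5%), Mxd4 being the exception, and in 82.7% of all genes tested. Its deviation from the median of the other 5 libraries followed the GC content of the transcripts. Across the 12134 tested genes with a GC value, Spearman's rho between GC content and this deviation was 0.696, and across the 8 members it was 0.755. These are descriptions over genes of the same libraries, which are not independent points. In Mga, the member lowest in GC (42.6%), the deviation was -1.21 on the log2 scale, and the median of the 912 genes within 1 GC point was also -1.21. For Myc (55%), the deviation was 0.58 and the median of its 1300 GC neighbours 0.57. Mnt (59.8%) deviated by 0.78, below the 0.97 of its neighbours, and Mxd3 (58.7%) by 0.56, against 0.88. Mxd4 (53.4%) deviated by 0.10, against 0.42. Max deviated by -0.68 where its neighbours had -0.042, Mxd1 by 0.70 where they had 0.066, and Mxi1 by 0.39 where they had 0.051. Each of these deviations lay within the 10th to 90th percentile of the neighbours (-1.05 to 0.76, -0.98 to 0.83 and -0.97 to 0.82). After each library was corrected for GC content, the log2 fold changes were -0.066 for Myc, 0.105 for Mga, 0.13 for Mnt, 0.36 for Mxd1, -0.15 for Max and -0.42 for Mxd3 (limma, unadjusted p = 0.027 for Mxd3, adjusted p = 0.672). In that fit 6.67% of all genes had an unadjusted p under 0.05.

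**Figure D3:**
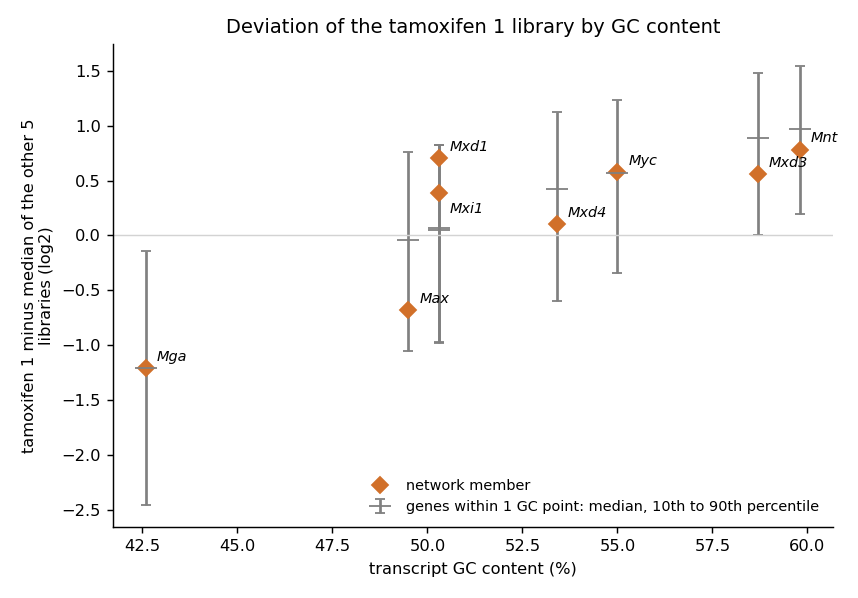
log2 deviation of the library labelled tamoxifen 1 from the median of the other 5 libraries (y axis) against the GC content of the transcript in percent (x axis) for each member (orange), with the median and the 10th to 90th percentile of genes within 1 GC point in gray. Myc and Mga lie on the median of their neighbours, at 0.58 and -1.21. Max and Mxd1 lie farther from the median of theirs, but within the 10th to 90th percentile.

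Levels of different genes were compared per length, as RPKM (reads per kilobase of exon and per unit of library size) computed from the recovered reads. Mean RPKM in the oil-labelled libraries was 151 ± 9.57 for Myc, 57.3 ± 3.46 for Max, 10.2 ± 0.692 for Mxi1, 10.1 ± 1.62 for Mnt, 7.02 ± 1.62 for Mxd4, 6.70 ± 0.428 for Mga, 6.08 ± 0.18 for Mxd3 and 5.70 ± 0.391 for Mxd1 (SD, n = 3 each). The ranges of Myc, Max and Mxi1 did not overlap. Mxi1 and Mnt overlapped, as did Mxd4 and Mga, and Mxd3 and Mxd1, so these neighbours cannot be ordered beyond their spread. Across the 6 libraries Myc ranked between 189 and 284 among 21604 protein-coding genes, and Max between 764 and 1643. The antagonists Mxd1, Mxd3, Mxd4, Mxi1, Mnt and Mga summed to RPKM values of 45.9, 47.8 and 43.9 in oil and to 53.8, 44.9 and 49.7 in tamoxifen-labelled libraries.

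The balance within the network was read as ratios of these per-length levels. Myc over Max was 2.59, 2.51 and 2.83 in the oil-labelled libraries and 6.07, 2.49 and 2.19 in the tamoxifen-labelled ones. The first library labelled tamoxifen thus had the highest ratio and the other 2 had the lowest ones (exact two-sided permutation test, p = 1, n = 3 each). Myc over the sum of the antagonists was 3.45, 2.93 and 3.52 in oil and 3.64, 3.3 and 2.67 in tamoxifen-labelled libraries (exact two-sided permutation test, p = 0.7). The antagonists took 17.3%, 19.6% and 17.3% of the network in oil and 19.1%, 17.8% and 20.5% in tamoxifen-labelled libraries (exact p = 0.5). With 3 against 3 libraries these tests cannot give a p below 0.1.

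**Figure D4:**
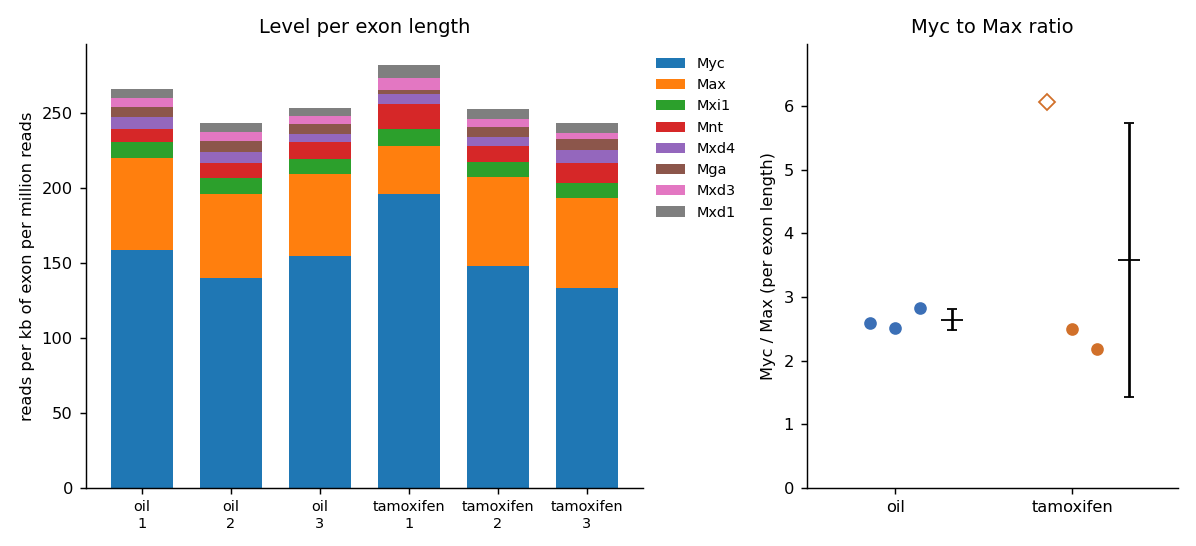
Left, level of each tested member per exon length (y axis, RPKM from recovered reads) stacked for each library. Right, Myc over Max per library with the mean ± SD of 3 libraries. Myc took 57.5% to 61.0% of the stack in oil, and the library labelled tamoxifen 1 (open diamond) reached 69.5% and a Myc to Max ratio of 6.07.

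The 5 genes whose log2 values were most like those of Myc over the 6 libraries were Cavin1 (Pearson's r = 0.998), Rpl7 (0.997), Atox1 (0.996), Bik (0.995) and Reep4 (0.995). They encode a caveola protein, a ribosomal protein, a copper chaperone, a proapoptotic BCL2 family member and an endoplasmic reticulum protein. Without the library labelled tamoxifen 1 their r with Myc was 0.972 to 0.988 over 5 libraries. In each of them, as in Myc, the library labelled tamoxifen 1 was the highest and the library labelled tamoxifen 3 the lowest. All points share the same libraries, and 563 of 12297 genes had an r above 0.95, so the values are descriptions without a test.

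The proteins that the network works with were described by lists whose genes were taken for their function. The MLX arm is the parallel network in which MLX takes the place of MAX. Mlx had 591, 589 and 696 normalized counts in oil and 704, 633 and 486 in tamoxifen-labelled libraries, a log2 fold change of -0.054 (limma, adjusted p = 0.893). Mlxip, which encodes the glucose-responsive partner MondoA, had 905, 956 and 964 in oil and 1031.4, 1032.5 and 1087.6 in tamoxifen-labelled libraries. All 3 values of Mlxip labelled tamoxifen lay above oil, but the log2 fold change was 0.16 with an adjusted p of 0.666 (limma). With the GC correction the log2 fold change of Mlxip was 0.056. Of the 2 genes of this arm that were tested, 1 lay wholly above oil (50%, against 7.86% of all genes) and 0 wholly below (against 9.69%). Mlxipl stayed at 2.02 or less. Of the MLX targets, Txnip, an inhibitor of glucose uptake, had 5650.8, 5798.3 and 4370.6 in oil and 5622.2, 5079.8 and 9573.1 in tamoxifen-labelled libraries, where only tamoxifen 3 was high (log2 fold change 0.31, adjusted p = 0.666), and Arrdc4 had 4 reads in the library labelled tamoxifen 1 and 0 elsewhere.

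Of the SIN3 and HDAC corepressor genes, 15 of 16 were tested, 0 passed after adjustment and the median log2 fold change was -0.038, beside -0.017 for all genes tested. Brms1l, a SIN3 subunit, had 905, 935 and 930 normalized counts in oil and 432, 848 and 743 in tamoxifen-labelled libraries, all below oil. Hdac1, which encodes the deacetylase itself, had 5022.1, 4741.8 and 5174.7 against 4397.8, 4712.0 and 4005.0, again without overlap (log2 fold change -0.19, limma, adjusted p = 0.666). The log2 fold change of Brms1l with all libraries was -0.51 (limma, adjusted p = 0.666). Leaving out the library labelled tamoxifen 1 gave -0.22 for Brms1l and -0.20 for Hdac1. A further subunit, Suds3, had a log2 fold change of 0.34 that came down to 0.0046 without that library. In the list, 2 of 15 genes lay wholly below oil (13.3%) and 0 wholly above, beside 9.69% and 7.86% of all genes, which for the lower genes is near the background.

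Among the 16 MYC coactivators and cofactors, 14 had a log2 fold change above 0, with a median of 0.20, but the median was 0.016 without the library labelled tamoxifen 1, which was the highest library in 11 of them. Kat2a, encoding the acetyltransferase GCN5, had 1990.5, 2003.8 and 2127.3 normalized counts in oil and 4802.9, 2266.1 and 2278.9 in tamoxifen-labelled libraries, so that all 3 lay above oil (log2 fold change 0.52, limma, adjusted p = 0.666, and 0.16 without the library labelled tamoxifen 1). It was the 1 gene of 16 wholly above oil (6.25%), near the share of all genes. Trrap, the scaffold of the acetyltransferase complexes, had log2 fold changes of 0.37 and 0.091 in the same 2 fits, and Crebbp 0.24 and 0.22. For the partners of MGA in PRC1.6, the median over 10 genes was 0.17, and -0.038 without that library. E2f6, which encodes a repressive E2F, lay wholly above oil, with 1389.6, 1521.4 and 1610.1 in oil and 1798.2, 1673.1 and 1670.5 in tamoxifen-labelled libraries (log2 fold change 0.19, limma, adjusted p = 0.666), as 1 gene of 10 (10%), again near the share of all genes. Rnf2, the E3 ligase of the complex, had 307 in the library labelled tamoxifen 1 and 1189.5 to 1468.6 in the others, and Tfdp1 had log2 fold changes of 0.22 and 0.021 with and without that library.

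Genes that act on the stability of the MYC protein numbered 17 in the tests, with a median log2 fold change of 0.042 (10 above 0 and 7 below). Leaving out the library labelled tamoxifen 1 turned the median to -0.052 (5 above 0 and 12 below), and leaving out oil 1 turned it to -0.061. Plk1, a mitotic kinase that also stabilizes MYC, had 2531.2, 2488.1 and 2530.3 normalized counts in oil and 887, 2375.2 and 1633.3 in tamoxifen-labelled libraries. All 3 of these values lay below oil, where the spread was small (log2 fold change -0.74, limma, adjusted p = 0.666, and -0.35 without the library labelled tamoxifen 1). Of the deubiquitinases, Usp22, outside the naming rule, overlapped between groups (log2 fold change -0.083, limma, adjusted p = 0.788). Usp36 had 1069.8, 1086.3 and 1149.5 in oil and 2305.6, 1167.9 and 1385.0 in tamoxifen-labelled libraries, wholly above, whereas Usp28 had 80.8, 92.6 and 93.8 against 56.2, 68.7 and 78.2, wholly below. Neither Usp36 nor Usp28 passed the threshold (limma, adjusted p = 0.666 each). In the list, 1 of 17 genes lay wholly above oil (5.88%) and 2 wholly below (11.8%), near the 7.86% and 9.69% of all genes.

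Of the 32 targets of MYC in ribosome biogenesis, 0 passed the threshold (limma) and 24 had a log2 fold change above 0. The median was 0.27, and 10 lay wholly above oil (31.2%, against 7.86% of all genes) and 0 wholly below. Without the library labelled tamoxifen 1, 29 of 32 were above 0, with a median of 0.11 beside -0.022 for all genes tested, and 6 had an unadjusted p under 0.05 in the upward direction and 0 in the downward one, beside 6.04% and 6.06% of all genes. In these 5 libraries 12 of the 32 genes lay wholly above oil, beside 1548 of the 12298 genes tested. Genes of this list vary together across libraries, so their number is not a number of independent observations. Ncl, which encodes nucleolin, had 39513.5, 41880.6 and 47247.5 normalized counts in oil and 57567.4, 54490.4 and 52003.5 in tamoxifen-labelled libraries. The 3 values labelled tamoxifen lay close together and above oil, and the log2 fold change of Ncl was 0.35 with an interval from -0.0041 to 0.71 (limma, adjusted p = 0.666), and 0.32 without the library labelled tamoxifen 1 (adjusted p = 0.285). Utp20, a small-subunit processome gene, had 2034.5, 2354.0 and 2340.8 against 3495.5, 2698.5 and 2655.4, with log2 fold changes of 0.39 and 0.26 in the 2 fits. Rrp12, which serves ribosomal subunit export, had 1258.4, 1345.9 and 1477.3 against 3343.4, 1681.1 and 1616.0, with log2 fold changes of 0.62 and 0.28.

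Targets of MYC in growth and metabolism were mixed. Of 31 genes tested, 18 had a log2 fold change above 0 and 13 below, the median was 0.093 with and without the library labelled tamoxifen 1, and 4 genes lay wholly above oil (12.9%, against 7.86% of all genes) and 3 wholly below (9.68%, against 9.69%). The 2 amino acid transporters named by the rule lay wholly above oil. Slc1a5, a glutamine carrier, had 3150.1, 3418.2 and 4075.3 normalized counts in oil and 6127.0, 4136.2 and 4256.9 in tamoxifen-labelled libraries (log2 fold change 0.43, limma, adjusted p = 0.666). Its log2 fold change was 0.25 without the library labelled tamoxifen 1 and 0.26 with the GC correction. Slc7a5, a carrier of large neutral amino acids, had 13187.9, 14642.3 and 16161.1 against 21385.7, 16660.8 and 17160.2 (log2 fold change 0.32, limma, adjusted p = 0.666). For Slc7a5 the value was 0.21 without the library labelled tamoxifen 1 and 0.11 with the GC correction. Srm, the spermidine synthase gene, overlapped between groups, with log2 fold changes of 0.49 and 0.27 with and without the library labelled tamoxifen 1.

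The largest log2 fold change among the genes of these lists was that of a gene that MYC represses. Cdkn1a, which encodes the cell cycle inhibitor p21, had 603, 487 and 614 normalized counts in the oil-labelled libraries and 2796.4, 1753.9 and 1897.9 in the tamoxifen-labelled ones. Every value labelled tamoxifen was well above every value labelled oil, with means of 568 ± 70.1 and 2149.4 ± 565 (SD, n = 3 each) and a ratio of 3.78. The log2 fold change of Cdkn1a was 1.90 with an interval from 1.36 to 2.43, yet its adjusted p was 0.266 with all libraries (limma). It was 1.69 with an adjusted p of 0.00118 without the library labelled tamoxifen 1 (limma), and in DESeq2, run on recovered reads with no library left out, the adjusted p was 7.95e-09, whereas edgeR on the same reads gave 0.216. Gadd45a, a stress-induced growth arrest gene, had 88.9, 105 and 99.4 against 175, 136 and 202 (log2 fold change 0.79, limma, adjusted p = 0.666). Cdkn2b, which encodes the inhibitor p15, had 12.6, 11.6 and 9.29 against 34.5, 15.2 and 18.2, a low gene that likewise lay above oil in every library. Cdkn1a and Gadd45a are also known targets of p53. Of 13 genes tested, 4 lay wholly above oil (30.8%, against 7.86% of all genes) and 1 wholly below (7.69%, against 9.69%), and the median log2 fold change was -0.15, or 0.027 without the library labelled tamoxifen 1.

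**Figure D5:**
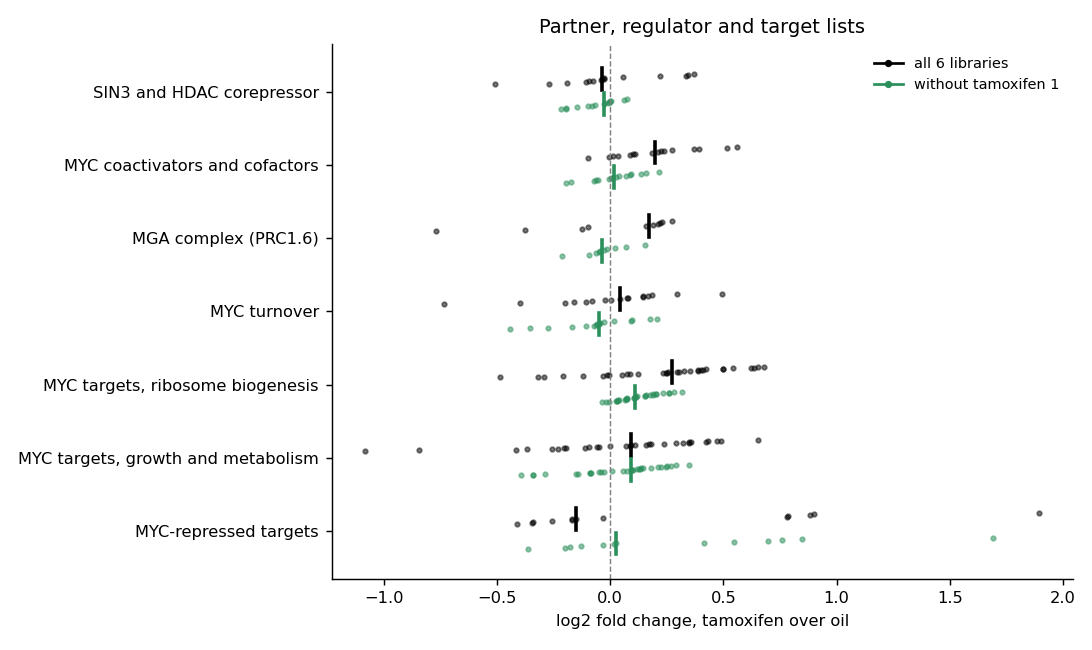
log2 fold change, libraries labelled tamoxifen over oil (x axis), of each tested gene in 7 lists, for all 6 libraries (black) and without the library labelled tamoxifen 1 (green), with vertical ticks at the medians. The ribosome biogenesis median is 0.27 and 0.11 in the 2 fits, and the point at 1.90 in the MYC-repressed list is Cdkn1a.

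The sorted population was checked by markers. Kit, the gene of the sort, had 8990.5, 8043.3 and 7511.8 normalized counts in oil and 4686.6, 7749.0 and 10976.3 in tamoxifen-labelled libraries, and Runx1 and Myb, named after their values were seen, were abundant but lay wholly below oil in tamoxifen-labelled libraries (9995.7, 11163.8 and 11220.1 against 12790.9, 12360.6 and 11591.8 for Runx1, and 3096.7, 5187.9 and 5165.3 against 6691.9, 5401.7 and 5327.9 for Myb). Of the 6 tested genes of the leukemia cell and gate list, these 2 lay wholly below oil (33.3%, against 9.69% of all genes), and 0 passed after adjustment (limma). The 1 wholly above was Gfi1, with 4.49, 4.82 and 1.86 in oil and 20.4, 11.1 and 12.7 in tamoxifen-labelled libraries. Gfi1 reached the filter value of 10 only in the tamoxifen-labelled libraries, so its lack of overlap followed from the filter and is not read as a difference. Ptprc, the pan-leukocyte marker CD45, stayed at 8.08 or less and Mpo, a granule enzyme of myeloid blasts, at 20.2 or less, whereas erythroid genes (9 of 9 tested, summing to 51116.7 to 88914.3) and mast cell and basophil genes (9 of 9 tested, 50913.9 to 84258.6) were abundant. Ptprc and Mpo were thus near 0 in cells labelled as acute myeloid leukemia. Of the T cell, NK cell and B cell lists, Cd3e, Cd8a, Ncr1 and Ms4a1 were at 0 in every library. The T cell list nevertheless summed to 401, 432 and 411 in oil and 259, 337 and 341 in tamoxifen-labelled libraries, mainly through Cd247, which lay wholly below oil, and the NK cell and B cell lists summed to at most 1.86 and 24.3. Of the macrophage list, 8 of 12 genes were tested, all 8 had a log2 fold change above 0 (5958 of the 12298 genes tested did) and 4 lay wholly above oil (50%, against 7.86% of all genes). The summed level of this list was 257, 108 and 122 in oil and 334, 409 and 311 in tamoxifen-labelled libraries. In limma with all libraries, 0 of its genes passed after adjustment without weights. With library weights 2 passed, beside 6.36% of all genes. The plasma cell list summed to 63.8, 29.9 and 51.1 in oil and 204, 231 and 71.8 in tamoxifen-labelled libraries. The neutrophil list, low throughout, summed to 15.3, 28.0 and 19.5 in oil and 62.6, 69.7 and 40.0 in tamoxifen-labelled libraries, wholly above, with S100a8 at 1.8, 0 and 1.86 against 12.8, 21.2 and 6.37, while its single tested gene, Mmp8, had a log2 fold change of -1.47 (limma, 0 genes past the threshold). Mmp8 had 8.98, 19.3 and 13 in oil against 0, 8.08 and 13.6. Its log2 fold change came down to -0.30 without the library labelled tamoxifen 1, which held the 0. The sums of the dendritic cell (84.9 to 174), megakaryocyte and platelet (1212.7 to 1596.9) and endothelial (935 to 2878.2) lists overlapped between groups. Nearly all of the dendritic cell sum came from Zbtb46 (81.8 to 174), and nearly all of the endothelial sum from Egfl7 (919 to 2868.0). In the mast cell and basophil list the median log2 fold change was 0.20, with 2 of 9 genes wholly above oil (22.2%, against 7.86% of all genes) and 1 wholly below (11.1%, against 9.69%). Named after their values were seen, Tpsb2 (46, 153 and 148 against 7.19, 16.4 and 13) and Mcpt8 (60.1, 78.8 and 96.4 against 27.8, 26 and 40.9) were those above, and Ms4a2 (2965.1, 16499.2 and 14036.4 against 17753.7, 19301.2 and 19161.2) was the one below. In limma 0 genes of this list passed after adjustment with all libraries, and 2 without the library labelled tamoxifen 1, where 0.333% of all genes passed. In those 5 libraries the median of the list was 0.51, 8 of 9 genes were above 0, and 4 lay wholly above oil, beside 1548 of 12298. The part of these cells in the values of Cdkn1a, the ribosome biogenesis genes or the members was not tested, and in bulk libraries fewer cells of a type and less RNA per cell cannot be told apart.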

How the data were processed

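The data were 6 bulk RNA-seq libraries, 3 labelled oil and 3 labelled tamoxifen, grouped by the sample labels. Per the labels and the study's methods, the authors aligned paired reads with STAR to mm10 and processed them with DESeq2; tool versions, annotation, strand setting and filters are not given in the sources used here. The deposited values are a normalized signal: the reads of a gene over the size factor of its library. Dividing by the smallest step of a library (0.898 to 1.28) gave whole reads, within 0.01 reads, for 100% of nonzero values. Of 55450 rows, 1832 without a gene name (0.04% to 0.0614% of the reads) were left out, 1402 names split at a point were rejoined and 108 rows repeated a name. GENCODE vM21 matched 51842 rows and gave coordinates, exon length and GC content.

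Fold changes came from limma 3.58.1 (R 4.3.3, lmFit and eBayes with trend) on log2(value + 1), a scale that understates the change of low genes, with two-sided p-values adjusted by Benjamini-Hochberg at a threshold of 0.05. On simulated data for this comparison (12298 genes, dispersion 0.05, 200 changed by 2 on the log2 scale), limma recovered 99% and called 11 unchanged genes. The simulation held no library that stood apart, so this share checks the code and is not the power of the real comparison. The 16 alternatives planned were pseudocounts of 0.5 and 5, no expression filter, TMM scaling, edgeR 4.0.16 and DESeq2 1.42.0 on recovered reads, library weights, a GC correction (loess, span 0.3), the replicate number as a block with and without that correction, and each library left out. After the data were seen, edgeR and DESeq2 without the library labelled tamoxifen 1 were added, which makes 18.

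The members and lists were chosen with earlier results of these data known. Named were all members, Usp18, Kit and Ptprc, the MLX arm and its targets, the 3 genes per list with the smallest unadjusted p, and the 5 genes most correlated with Myc. Prelid1, Usp22 and the marker genes other than Kit and Ptprc fall outside this rule and were named after their values were seen. No set test was made.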

Additional observations from a re-analysis of the deposited data

How the results depend on the processing

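Fold changes of Mxd1 and Mnt kept their direction under all 18 alternatives, from 0.11 to 0.50 and from 0.13 to 0.62 on the log2 scale, and the ribosome biogenesis median stayed between 0.10 and 0.35. With library weights, 1 member passed the threshold (Mxd3), 1 was higher (Mnt) and 1 lower (Mxd3) at an unadjusted p under 0.05, as were 2872 of all 12298 genes in either direction. Usp18 also passed there (0.52, adjusted p = 0.0348). The log2 fold change was -0.15 for Myc, 0.046 for Max, -0.060 for Mxi1 and 0.11 for Mga, and the median was -0.057 for the MGA complex, -0.11 for MYC turnover and 0.028 for MYC-repressed targets. That fit called 2 turnover genes (Aurka and Plk1, both lower), 3 growth and metabolism genes (Ldha, Eno1 and Tfrc, all lower) and 3 MYC-repressed targets (Cdkn1a and Gadd45a higher, Cdkn2c lower); those outside the naming rule were named after their values were seen. With the GC correction, alone or with the replicate block, the log2 fold change was -0.066 for Myc, -0.036 for Mxd4 and 0.105 for Mga, and the median was 0.12 for the SIN3 and HDAC list and -0.017 for MYC-repressed targets. The GC correction alone left 1 member lower at an unadjusted p under 0.05 (Mxd3, with 820 of all 12298 genes under it) and 1 MYC-repressed target past the threshold (Cdkn1a). The MYC-repressed median was -0.0091 with edgeR and -0.023 with DESeq2, which called 1 of these targets. Without the library labelled tamoxifen 1, edgeR and DESeq2, both added after the data were seen, gave -0.099 and -0.11 for Myc, 0.074 and 0.065 for Max, -0.039 and -0.049 for Mxi1 and 0.14 and 0.13 for Mga. Each found 1 member lower at an unadjusted p under 0.05 (Mxd3, with 1481 of 12298 genes under it in edgeR and 1269 of 23788 in DESeq2) and 1 MYC-repressed target past the threshold (Cdkn1a), with MYC-repressed medians of 0.031 and 0.022. DESeq2 there gave a MGA complex median of -0.021 and called 1 ribosome biogenesis gene (Ncl, adjusted p = 0.027) and 1 growth and metabolism gene (Eno1, lower, adjusted p = 0.00621). The number of genes called was 46 with edgeR and 231 with DESeq2 in these fits, against 0 in the limma fit of all libraries, 2 with the GC correction and 782 with library weights.

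With each library left out in turn, the log2 fold change ran from -0.12 to 0.27 for Myc, -0.30 to 0.053 for Max, -0.47 to 0.10 for Mxd3, -0.10 to 0.22 for Mxd4, -0.061 to 0.15 for Mxi1 and -0.53 to 0.12 for Mga. Medians ran from -0.038 to 0.26 for the MGA complex and from -0.18 to 0.040 for MYC-repressed targets, of which 0 to 1 passed. Members at an unadjusted p under 0.05 (limma) numbered 0 to 1 higher and 0 to 1 lower. The 1 higher came without tamoxifen 2, where 1073 of 12298 genes were under it. The 1 lower, Mxd3, came without tamoxifen 1, where 1488 of 12298 genes were. The reversals of Myc, Max, Mxi1 and Mga came without the library labelled tamoxifen 1, that of Mxd3 (0.10) without tamoxifen 3 and that of Mxd4 (-0.10) without oil 3. The causes were not tested. Deviations from the group means correlated at -0.024, 0.061 and -0.15 between libraries of equal replicate number, which gives no sign of pairs. With 3 libraries a group, 1 of which stood apart, these values cannot exclude pairs. Fitted with the replicate block, limma gave 0 members past the threshold, 0 genes after adjustment and 426 genes at an unadjusted p under 0.05. Depth limits Mycn, Mycl, Mlxipl, Arrdc4, Ptprc and the markers at or near 0, and leaves Cdkn2b with 10 to 27 reads a library.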

Other observations

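Values of single genes in the lists follow, picked out after they were seen. Without the library labelled tamoxifen 1, the log2 fold change was -0.34 for Ldha, -0.39 for Eno1, -0.29 for Pkm and 0.13 for Hk2, and with all libraries it was -0.23, -0.049, 0.17 and 0.36 (limma, no adjusted p under 0.05 in either fit). Tfrc, the transferrin receptor gene, had log2 fold changes of -1.08 and -0.34 with and without that library, and Aurka, a mitotic kinase gene, -0.20 and -0.45.

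The E-box CACGTG was present in 7 of 28 promoters of the ribosome biogenesis genes (25%) and in 11 of 35 promoters of the growth and metabolism genes (31.4%), beside 10.1% of the promoters of all genes tested and 18.2% of the 22 promoters of MYC-repressed targets.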
